A study of Oncorhynchus mykiss with 9 samples.

Results

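The enzymes that build haem and those that take it apart were followed in head kidney RNA of rainbow trout kept in well-oxygenated or oxygen-poor water. Rows of the deposited expression table were taken where the pathway field began with ko00860, the KEGG map of porphyrin metabolism, leaving out the ferritin chains, and rows with the symbols alas1, alas2 or any symbol starting with hmox were added. The rule found 37 of 44219 genes, 29 by the pathway field and 8 by symbol, which belong to 19 enzymes. The fish were full siblings of about 130 g held at 12 °C. Control fish were in water with 8.5 mg/L oxygen and were sampled at 0 h. The moderate hypoxia group was brought to 4.5 mg/L and the severe hypoxia group to 3.0 mg/L, and both were sampled at 12 h. Each group held 3 libraries, 9 in all, and the number of fish behind a library is not given. Oxygen and sampling time (which the labels enter as a batch) changed together between the control and either hypoxia group, so these cannot be told apart, and both comparisons use the same control libraries.

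Haem is an iron-containing ring made partly inside mitochondria and partly in the cytosol. Its synthesis begins with the joining of glycine and succinyl-CoA by 5-aminolevulinate synthase, which exists as a general form, alas1, and a form of developing red blood cells, alas2, and it ends with the insertion of iron by ferrochelatase. Haem oxygenases open the ring to biliverdin, iron and carbon monoxide, and biliverdin reductases turn biliverdin into bilirubin. In adult trout blood cells are formed mainly in the head kidney, and immature red cells carry most of the haem synthesis of the body for the making of haemoglobin.

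The table holds 1 FPKM value (fragments scaled by transcript length and library size) and 1 estimated count per group and gene, each taken as the mean of 3 libraries. No spread between libraries can be had from it, so the differences described have no replicate check and no test. The intervals given are 95% Clopper-Pearson counting intervals, which cover counting error only. Counts are printed as deposited, per library. Ratios were formed after scaling by trimmed mean of M-values (TMM), fitted on the 28711 genes whose mean reached 10 counts in some group, so that 0 on the log2 scale stands for the typical gene. The groups held 15246482, 15301518 and 14700244 counts per library in the control, moderate and severe hypoxia. Globins took 13.0%, 4.12% and 7.37% of them in that order. With library totals as the only scaling, the log2 ratio of the median gene is 0.69 for moderate hypoxia against the control, 0.34 for severe hypoxia against the control and -0.34 for severe against moderate hypoxia. Enzymes whose direction turns on that scale are named as such.

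Of the 37 member rows, 36 passed the minimum count, and the other, a further alas1 row, had 1.74, 1.72 and 1.01 counts in the control, moderate and severe hypoxia. In moderate hypoxia 8 of the 36 rows were at least 2-fold lower than in the control, against 14.1% of all genes, and 1 was at least 2-fold higher, against 20.0% of all genes. The 8 were alas2, both uros rows, all 3 hmox1 rows and both blvrb rows. In severe hypoxia 6 rows were at least 2-fold lower than in the control, against 4.40% of all genes, and 1 was at least 2-fold higher, against 13.7%. Among those 6 were 1 alad row, 1 urod row and fech. The single higher row was HEPHL1 each time. Between the hypoxia groups, alas2 and 1 blvrb row were at least 2-fold higher in severe than in moderate hypoxia (9.03% of all genes), and HEPHL1 was at least 2-fold lower (10.5%). On library totals 2 rows, alas2 and the larger blvrb row, stayed at least 2-fold lower in moderate hypoxia, and none was in severe hypoxia. On that scale 6 rows were at least 2-fold lower in severe than in moderate hypoxia, where the median gene itself was at log2 -0.34. Shares of all genes are not given for library totals, so these counts are not set against a background.

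**Figure D1:**
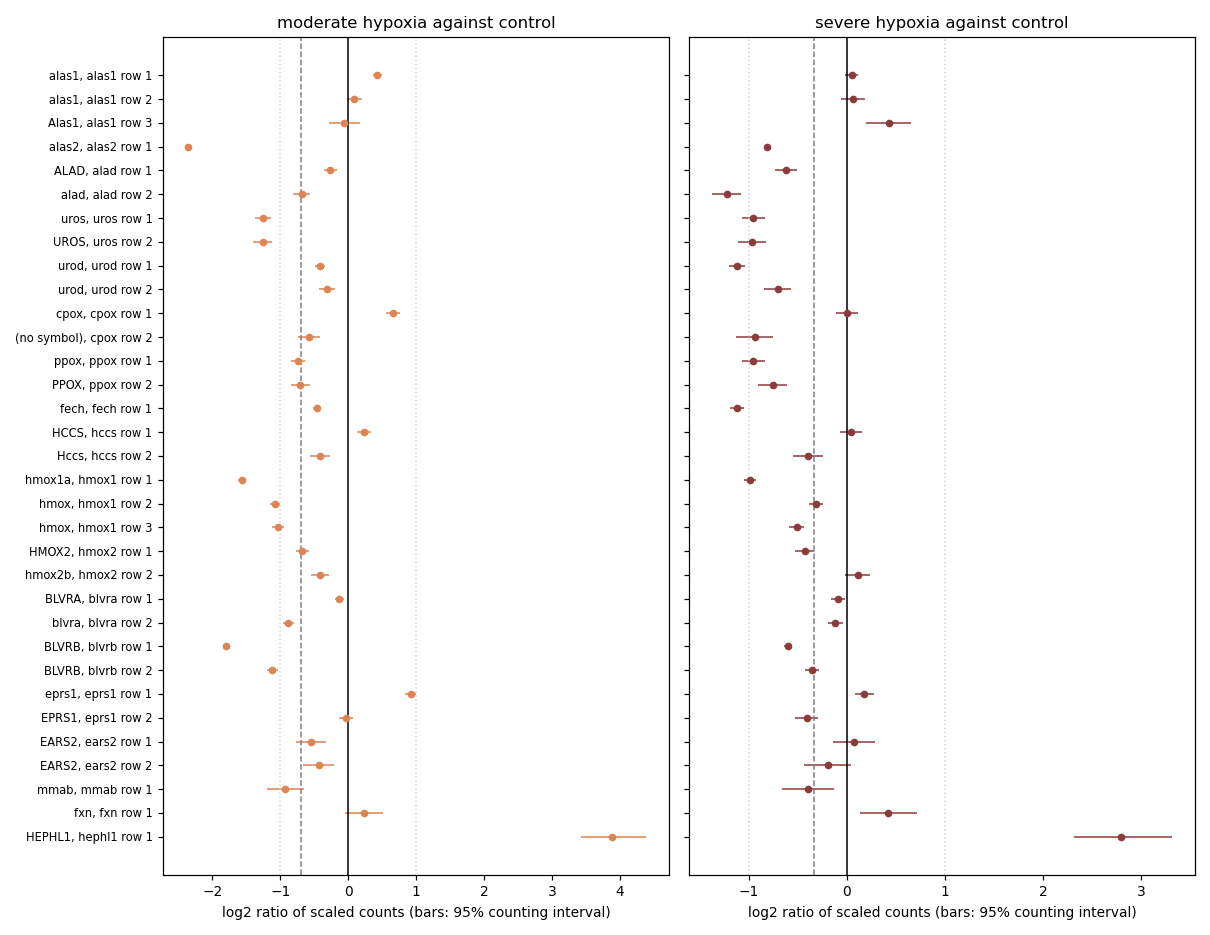
Log2 ratios of TMM-scaled counts for the member rows described here that passed the minimum count, in pathway order from top to bottom, for moderate (left) and severe hypoxia (right) against the control. Points are rows, bars are 95% counting intervals, dotted lines mark 2-fold, and the dashed line is where 0 lies when library totals are used instead. The alas2 and larger BLVRB rows lie farthest left in moderate hypoxia, and HEPHL1 lies farthest right in both.

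The first step had its general and its red cell form going apart. The red cell synthase alas2, a single row, had 16755 counts in the control, 5294 under moderate and 11658 under severe hypoxia. It was highest in the control and lowest in moderate hypoxia. Scaled, alas2 was 5.12-fold lower in moderate hypoxia than in the control (interval 5.03 to 5.21; log2 -2.36), below which lay 1.92% of all genes. In severe hypoxia alas2 was 1.75-fold lower than in the control (1.73 to 1.78; log2 -0.81), and 2.92-fold higher than in moderate hypoxia. On library totals the 3 log2 values were -1.67, -0.47 and 1.20, with the same directions.

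The general synthase alas1 was read in 3 rows above the minimum. The largest had 1061, 2315 and 1339 counts in the control, moderate and severe hypoxia, the next 317, 546 and 404, and the smallest, Alas1, 84.7, 132 and 139. Summed over its rows, alas1 was 1.26-fold higher in moderate hypoxia than in the control (1.22 to 1.31; log2 0.34) and at log2 0.08 in severe hypoxia, or 1.03 and 0.42 on library totals. The sum was therefore above the typical gene in moderate hypoxia and close to it in severe hypoxia. In moderate hypoxia the largest row was at 0.43 and the next at 0.09, with an interval of -0.02 to 0.21 that spans 0. The small Alas1 row differed from the sum in both hypoxia groups, at -0.06 (0.63 on library totals) in moderate and 0.43 in severe hypoxia.

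Levels of the pair of synthases can be set side by side per length. In FPKM, alas2 stood at 445, 140 and 322 in the control, moderate and severe hypoxia, and alas1, rows summed, at 42.0, 85.2 and 55.7. The red cell form made up 91.4% of the synthase FPKM in the control, 62.2% under moderate and 85.2% under severe hypoxia. The number of genes with a higher FPKM than alas2 was 260 in the control, 485 under moderate and 300 under severe hypoxia. Counts of alas2 per count of alas1, which need no scaling between groups, were 11.4 in the control (11.1 to 11.8), 1.77 under moderate (1.72 to 1.81) and 6.19 in severe hypoxia (6.02 to 6.37). These intervals do not overlap, and the order is control, severe, moderate.

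**Figure D2:**
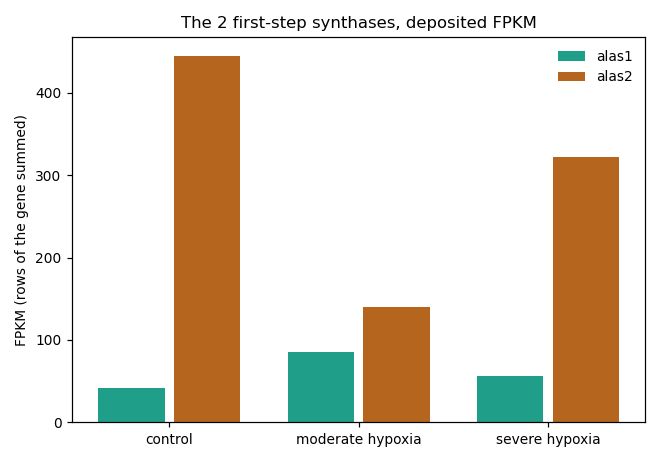
Deposited FPKM of the general synthase alas1 (rows summed) and the red cell synthase alas2 in the 3 groups, 1 mean value per group and hence no error bars. The alas2 bar is the taller in each group, with its smallest lead in moderate hypoxia, 140 against 85.2.

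In the cytosol, alad joins pairs of 5-aminolevulinate into porphobilinogen. Its rows had 459, 620 and 364 counts (ALAD) and 361, 364 and 189 counts (alad) in the control, moderate and severe hypoxia. Summed, alad was at log2 -0.43 in moderate hypoxia, a direction that turned on library totals (0.26), and 1.81-fold lower in severe hypoxia than in the control (1.70 to 1.93; log2 -0.85), where library totals gave -0.52.

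Uroporphyrinogen III synthase (uros) closes the porphyrin ring. Its rows had 476, 324 and 300 counts (uros) and 354, 240 and 221 counts (UROS) in the control, moderate and severe hypoxia. Unlike urod, which follows it in the pathway, uros was, in sum, below the control in both hypoxia groups even in unscaled counts. Summed and scaled it was 2.38-fold lower in moderate hypoxia (2.24 to 2.54; log2 -1.25) and 1.94-fold lower in severe hypoxia (1.82 to 2.07; log2 -0.96). On library totals both stayed below 0, at -0.56 and -0.62.

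Uroporphyrinogen decarboxylase (urod) trims the side chains of the ring. Its rows had 1103, 1339 and 621 counts and 354, 461 and 265 counts in the control, moderate and severe hypoxia. Summed, urod was 2.01-fold lower in severe hypoxia than in the control (1.91 to 2.11) and at log2 -0.39 in moderate hypoxia, which turned to 0.30 on library totals. Its severe hypoxia value on library totals was -0.67.

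Back in the mitochondrion, coproporphyrinogen oxidase (cpox) oxidises side chains of the ring, protoporphyrinogen oxidase (ppox) oxidises the ring itself, and ferrochelatase (fech) adds iron. The cpox row had 394, 1006 and 482 counts in the control, moderate and severe hypoxia, and a row without a symbol that carries the cpox orthology number had 193, 210 and 123. These copies differed: against the control in moderate hypoxia the named row was at log2 0.66 and the other at -0.57, which turned to 0.11 on library totals. Summed, they were 1.28-fold higher in moderate hypoxia than in the control (1.21 to 1.36; log2 0.36) and at -0.24 in severe hypoxia, which turned to 0.10 on library totals. The cpox row was the only one of the 14 synthesis rows after the synthase step that was above 0 in moderate hypoxia under TMM.

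The ppox rows had 502, 485 and 316 counts (ppox) and 298, 296 and 215 counts (PPOX) in the control, moderate and severe hypoxia. Summed, ppox was 1.66-fold lower in moderate hypoxia than in the control (1.56 to 1.75; log2 -0.73, and -0.04 on library totals) and 1.83-fold lower in severe hypoxia (1.72 to 1.95; log2 -0.87). The last enzyme, fech, a single row, had 1565, 1837 and 877 counts. It was 2.18-fold lower in severe hypoxia than in the control (2.07 to 2.28; log2 -1.12, and -0.78 on library totals) and at -0.46 in moderate hypoxia, which turned to 0.23 on library totals.

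**Figure D3:**
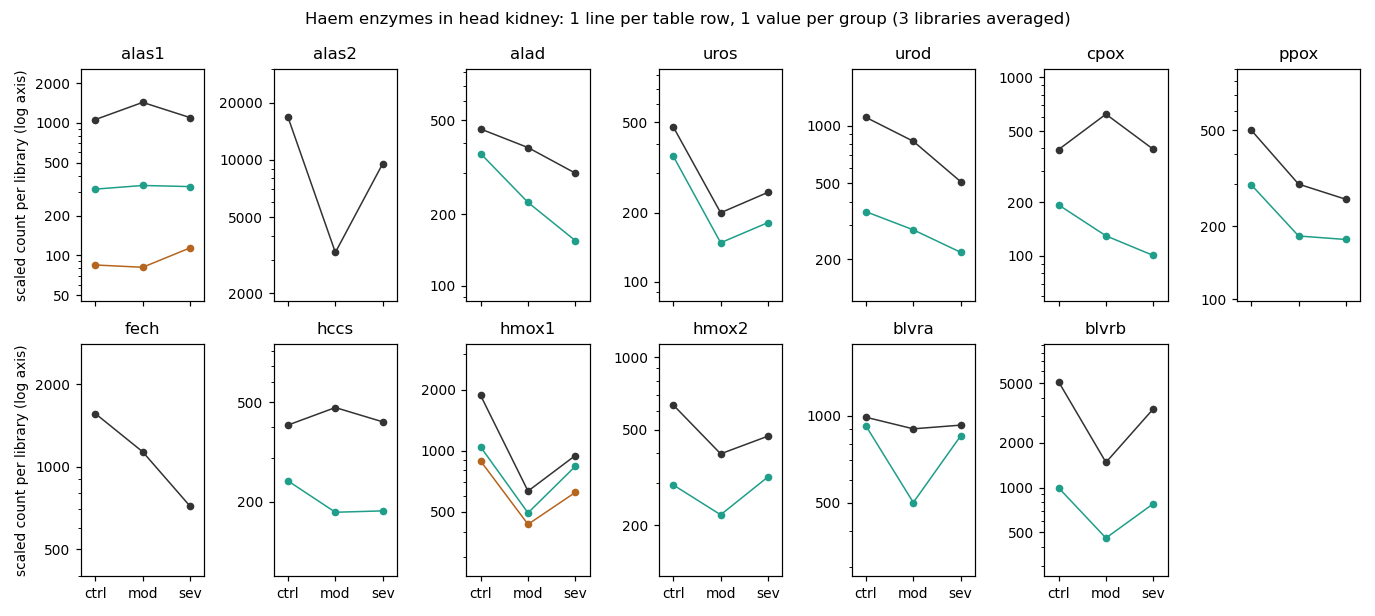
TMM-scaled counts per library (log axis, its range set for each panel) of member rows of synthesis, haem attachment and breakdown in the control (ctrl), moderate (mod) and severe hypoxia (sev), with 1 line per row. Lines of alas2, hmox1 and blvrb dip in moderate hypoxia, while those of alad, urod and fech descend to severe hypoxia.

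Put together by step, 15 of 18 synthesis rows were below 0 in moderate hypoxia against the control and 14 of 18 in severe hypoxia, where 49.8% and 49.6% of all genes were below 0. On library totals 6 and 14 of the 18 were below 0. There the smaller alad row, at 0.00 in moderate hypoxia, had 22.6% of all genes below it. In severe hypoxia the smaller blvrb row, at -0.01 on that scale, had 24.1% below it. The median of the 18 rows was -0.59 in moderate and -0.95 in severe hypoxia, against 0.00 for all genes in both. Leaving out the synthase step, the 14 later rows had medians of -0.64 and -0.96, with 13 below 0 each time (5 and 13 on library totals). Severe hypoxia held the lowest scaled count of 11 of the 18 synthesis rows (13 on library totals), and under TMM it held the lowest of 22.0% of all genes. The alas2 row was not among the 11, since its lowest value was in moderate hypoxia.

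Enzyme counts can also be set against the globin counts of the same group, which needs no scaling between groups. Whether globin counts follow red cell content was not tested. The 51 globin rows together had 1981780 counts per library in the control, 630135 under moderate and 1083920 under severe hypoxia. Per 1000 globin counts, alas2 had 8.45 counts in the control (8.38 to 8.53), 8.40 under moderate (8.27 to 8.53) and 10.8 in severe hypoxia (10.6 to 10.9). The alas2 and globin counts thus differed by nearly the same factor between the control and moderate hypoxia, 5.12-fold and 5.09-fold lower after scaling. In severe hypoxia globins were 2.23-fold lower than in the control and alas2 1.75-fold lower.

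Since globins were far below the typical gene, nearly every gene stood higher per globin count in hypoxia: the median over all genes was 5.10-fold higher in moderate and 2.24-fold higher in severe hypoxia than in the control, and 98.0% and 96.9% of genes were above 1-fold. Against that median, alas2 per globin count was among the lowest 1.93% of genes in moderate hypoxia and 7.22% in severe hypoxia. All genes of a group share the globin total as divisor, so ranks by this measure only restate those under TMM (1.92% and 7.22%). The other synthesis enzymes described here lay on both sides of the median gene in moderate hypoxia, from 2.14-fold for uros (0.419 to 0.895 counts per 1000) to 6.51-fold for cpox (0.296 to 1.93). In severe hypoxia fech had 0.809 counts per 1000 globin counts (0.778 to 0.841) against 0.790 in the control (0.767 to 0.812). The intervals overlap, so fech was not distinguishable from the control per globin count in severe hypoxia within counting error, and 3.33% of genes were lower by this measure. The general synthase alas1 had 0.739, 4.75 and 1.74 counts per 1000 globin counts in the control, moderate and severe hypoxia. Per count of fech, alas2 had 10.7, 2.88 and 13.3 counts in the same order. Measured against the last enzyme of its pathway, alas2 was thus lowest in moderate hypoxia and highest in severe hypoxia.

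**Figure D4:**
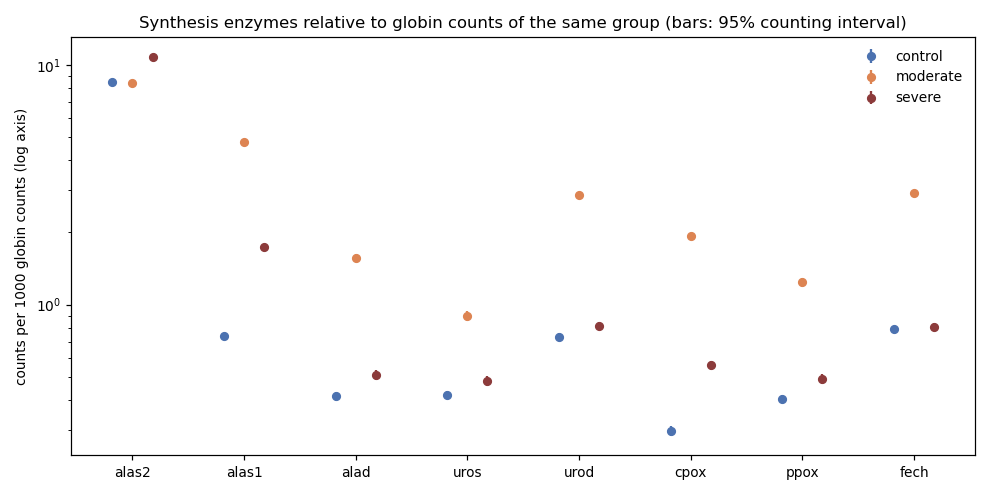
Counts of synthesis enzymes (rows summed) per 1000 globin counts of the same group, on a log axis, with 95% counting intervals that are mostly smaller than the points. The 3 alas2 points lie between 8.40 and 10.8, while the points of moderate hypoxia stand above those of the control for every other enzyme drawn, as they do for 98.0% of all genes (median 5.10-fold).

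The summed red cell markers, most of whose counts are globins, were, like alas2, lowest in moderate hypoxia. The enzymes alad, urod and fech were lowest in severe hypoxia, as were some single red cell markers given below. The erythroid marker list includes part of the globin rows (among them hba, hbb, hba1 and hbb1), the anion exchanger slc4a1 and the Rh glycoprotein rhag. It summed to 73030 CPM (counts scaled by the library total) in the control, 23302 under moderate and 44442 under severe hypoxia. Of its 39 rows above the minimum, 24 were at least 2-fold lower and 3 at least 2-fold higher in moderate hypoxia (14.1% and 20.0% of all genes), and 13 lower and 0 higher in severe hypoxia (4.40% and 13.7%), with medians of -1.41 and -0.89. The 3 higher rows were the transferrin receptor rows tfr1b (1574, 5309 and 1881 counts; log2 1.06 in moderate hypoxia) and TFRC (189, 675 and 376 counts; 1.14) and a small epb41a row (9.00, 48.3 and 10.3 counts; 1.73), while the spectrin gene sptb was at 0.18. Globin copies recur in the list, with 17 rows for hba1 and 15 for hbb, so its row counts and medians partly repeat the globins. Summed by gene, slc4a1 (-0.84), rhag (-0.91), ank1 (-0.86) and epb41 (-0.39) were within 2-fold of the control in moderate hypoxia. Lower than that were nfe2 (-1.42), tal1 (-1.57) and epor (-1.84). In severe against moderate hypoxia 30 of the 39 rows were above 0 and 9 below, where 50.5% of all genes were above 0. The receptor row tfr1a was lowest in severe hypoxia under TMM, at -0.45 in moderate and -0.56 in severe hypoxia. On library totals slc4a1 (-0.15 and -0.44) and the iron importer slc25a37 (-0.38 and -0.71) were lowest there too. In all groups 16 of the 73 rows were at 0. The membrane genes slc4a1 and rhag had 2.84-fold and 2.70-fold more counts per globin count in moderate hypoxia than in the control. They were below the median gene by that measure, as they were under TMM. In bulk tissue fewer red cells and less RNA per cell cannot be told apart. Muscle markers (386, 95.3 and 294 CPM) and liver markers (50.1, 2.90 and 65.7) were also lowest in moderate hypoxia, and kidney tubule markers were at 210, 201 and 236 CPM. Most counts of the tubule list came from aqp1 (2637, 1952 and 2596 counts), so its sum mainly follows that gene. Against the control in moderate hypoxia aqp1 was at log2 -1.13, while umod was at 0.10, cubn at 0.95 and lrp2 at 2.54. The part of any of these marker lists in the enzyme values was not tested.

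Holocytochrome c synthase (hccs) fixes haem onto cytochromes c of the respiratory chain. Its rows had 406, 771 and 510 counts (HCCS) and 243, 294 and 225 counts (Hccs) in the control, moderate and severe hypoxia. Summed, hccs was at log2 0.02 in moderate hypoxia, with an interval of -0.06 to 0.10 that spans 0, and at -0.11 in severe hypoxia, which turned to 0.23 on library totals.

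Haem breakdown was read in 9 rows, and all 9 had their lowest scaled count in moderate hypoxia (6 of 9 on library totals). Under TMM it was the lowest group for 40.3% of all genes. Their median was -1.03 in moderate hypoxia against the control and -0.35 in severe hypoxia, against 0.00 for all genes. Under TMM all 9 rows were below 0 in moderate hypoxia and 8 in severe hypoxia, where 49.8% and 49.6% of all genes were. On library totals 6 and 5 were below 0. There 22.6% of all genes lay below the smaller alad row, at 0.00 in moderate hypoxia. In severe hypoxia 24.1% lay below the smaller blvrb row, at -0.01. All 9 were above 0 in severe against moderate hypoxia under TMM, as were 50.5% of all genes, with a median of 0.58. On library totals 7 were above 0, and there summed hmox2, at 0.00, had 68.7% of all genes below it.

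The inducible haem oxygenase, hmox1, is known in mammals as a target of haem and oxidative stress. Its row hmox1a had 1870, 1024 and 1155 counts in the control, moderate and severe hypoxia, and the rows called hmox, with the same orthology number, had 1043, 800 and 1023 counts and 889, 702 and 760 counts. All 3 rows were highest in the control and lowest in moderate hypoxia once scaled. Summed, hmox1 was 2.44-fold lower in moderate hypoxia than in the control (2.37 to 2.51; log2 -1.28) and 1.58-fold lower in severe hypoxia (1.53 to 1.62; log2 -0.66), with -0.60 and -0.32 on library totals. The hmox1a row was at -1.56 and -0.98 in these comparisons, below both other rows.

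The constitutive form, hmox2, had rows of 633, 642 and 573 counts (HMOX2) and 294, 358 and 388 counts (hmox2b) in the control, moderate and severe hypoxia. Summed it was at -0.59 in moderate and -0.24 in severe hypoxia, each turning to 0.10 on library totals. Counts of hmox1 per count of hmox2 were 4.10 in the control (3.93 to 4.28), 2.53 under moderate (2.42 to 2.64) and 3.06 in severe hypoxia (2.93 to 3.19). By this ratio, which needs no scaling between groups, the inducible form was lower against the constitutive form in both hypoxia groups. The gap was small once a trend with gene length was removed, with hmox1 at log2 -0.83 and hmox2 at -0.75 in moderate hypoxia. Macrophages take up old red cells and are a known site of hmox1. The macrophage marker list summed to 1417, 2254 and 2237 CPM in the control, moderate and severe hypoxia, but under TMM its sum was at log2 -0.02 in moderate and 0.32 in severe hypoxia. Of its 16 rows above the minimum, 5 and 4 were at least 2-fold higher, where 20.0% and 13.7% of all genes were. None was at least 2-fold lower, where 14.1% and 4.40% of all genes were. Its genes went apart in moderate hypoxia: mrc1 was at 1.10, mpeg1.1 at 0.70 and cd163 at 0.62, while marco was at -0.49 and c1qa, c1qb and c1qc were at -0.99, -0.35 and -0.95, of which marco and c1qb were above 0 on library totals. Its part in the hmox1 values was not tested.

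Biliverdin reductase A (blvra) makes bilirubin. Its rows had 988, 1458 and 1132 counts (BLVRA) and 922, 809 and 1039 counts (blvra) in the control, moderate and severe hypoxia. The copies went apart in moderate hypoxia, at log2 -0.13 and -0.88 (0.56 and -0.19 on library totals), and summed they were at -0.45 in moderate and -0.10 in severe hypoxia, both turning to 0.24 on library totals. Biliverdin reductase B (blvrb), also a flavin reductase, is abundant in red cells of mammals. The larger BLVRB row had 5103, 2384 and 4100 counts and the smaller 996, 743 and 950. Summed, blvrb was 3.16-fold lower in moderate hypoxia than in the control (3.08 to 3.24; log2 -1.66) and 1.47-fold lower in severe hypoxia (1.44 to 1.51; log2 -0.56), with -0.97 and -0.22 on library totals. After alas2 it was the lowest enzyme of the 19 in moderate hypoxia. Per count of blvra, blvrb had 3.19, 1.38 and 2.33 counts in the control, moderate and severe hypoxia, an order shared with alas2 per alas1. The gap between blvrb and blvra was smaller once a trend with gene length was removed. They were then at log2 -1.05 and -0.66 in moderate hypoxia.

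The remaining 7 rows lie on the same KEGG map but not on the line from glycine to bilirubin. The eprs1 and EPRS1 rows, the cytosolic synthetase that charges tRNA with glutamate and proline, had 518, 1581 and 714 counts and 417, 658 and 383 counts in the control, moderate and severe hypoxia. Summed, eprs1 was 1.48-fold higher in moderate hypoxia than in the control (1.42 to 1.55; log2 0.57). That value was 1.25 on library totals and 0.15 once the trend with gene length was removed. In severe hypoxia eprs1 was at -0.06, with an interval of -0.13 to 0.02 that spans 0 and a value of 0.28 on library totals. The EARS2 rows, its mitochondrial counterpart for glutamate, had 110, 122 and 141 counts and 93.8, 112 and 100 counts and summed to -0.49 and -0.04, both turning above 0 on library totals.

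The mmab row, an enzyme of cobalamin metabolism, had 83.0, 70.7 and 77.0 counts (log2 -0.93 and -0.39 against the control). The row of frataxin, fxn, which serves iron-sulfur cluster assembly, had 53.7, 102 and 87.7 counts, and its interval in moderate hypoxia (log2 0.23), -0.05 to 0.51, spans 0, while in severe hypoxia it was at 0.42. The HEPHL1 row, a copper-dependent ferroxidase related to ceruloplasmin, had 13.0 counts in the control, 310 under moderate and 110 under severe hypoxia. It was 14.8-fold higher in moderate hypoxia than in the control (10.7 to 20.9; log2 3.88) and at 2.80 in severe hypoxia, with 4.57 and 3.14 on library totals. Of the 36 rows it had the lowest control count above the minimum and the largest ratio in each comparison with the control.

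Counts of some copies were fractional. Counts of 15 of the 37 rows were not whole after multiplication by 3 libraries (tolerance 0.002), in 7 enzymes (alas1, uros, urod, ppox, hmox1, hmox2 and EARS2), and in all 7 the rows of the enzyme summed to whole counts within 0.01 in every group. The fractional parts thus cancelled within each enzyme, as they do where reads are divided among copies of the same enzyme, and single copies of these 7 are less certain than their totals.

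Counts and FPKM gave the same ratios for nearly all rows, and fech departed most. In FPKM, fech stood at 25.0, 44.6 and 16.4 in the control, moderate and severe hypoxia, so that it was highest in moderate hypoxia by more than its counts were. Counts per FPKM of fech changed by log2 -0.60 in moderate hypoxia against the control, where the median of all genes was 0.01 and 0.105% of genes were lower. In severe against moderate hypoxia the change was 0.38, and 99.9% of genes were lower. The second EARS2 row went the other way, by 0.27 in moderate hypoxia against the control. The cause was not tested.

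**Figure D5:**
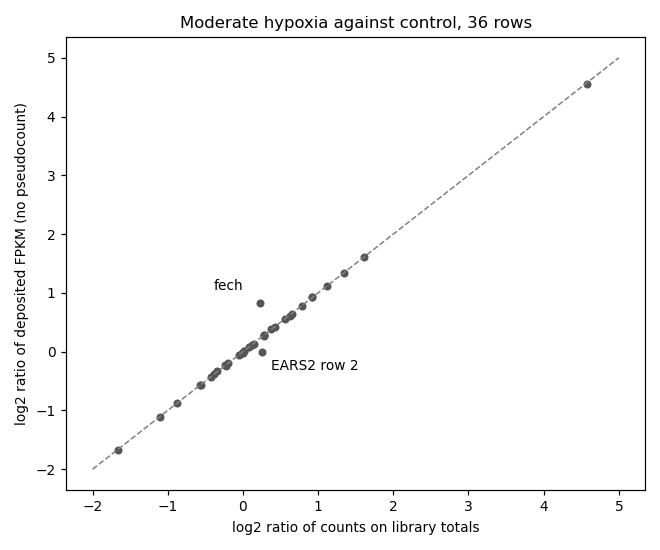
Log2 ratio of moderate hypoxia to the control in deposited FPKM (no pseudocount) against that in counts on library totals, for the 36 member rows above the minimum. Points are rows and the dashed line marks equal ratios. Of the rows drawn, fech lies above the line and the second EARS2 row below it, while the rest follow it.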

How the data were processed

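RNA of head kidney was sequenced in 9 libraries, grouped by the treatment in the labels. The deposited table gives, per the file headers, 1 FPKM value, computed by the authors, and 1 estimated count per group and gene. Per the submitters' processing notes, Bowtie2 2.2.8 and HISAT2 were used, in roles those notes do not give. How counts were made, and on which build and annotation, is not given in the sources used here. Lines of the table were read in 16 fields of 8 characters, as deposited, and held 44219 genes and 1985 other lines. IDs end after 8 characters and take 95 distinct values, so rows were not placed in a genome, and promoter and protein sequences were not used here. Of 22 member symbols, 13 were found in RefSeq's gene table for USDA_OmykA_1.1.

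The test per library that the design allowed for was not possible with 1 value per group. TMM factors (30% trim of ratios, 5% of abundance) came from the 28711 genes whose mean reached 10 counts in a group and were 1.62 in moderate and 1.22 in severe hypoxia relative to the control. Clopper-Pearson intervals used counts times 3 libraries. A gene was called at 2-fold. Symbols matched a list by name or by name with a copy suffix. Left out were 12 rows whose description, or whose symbol (which may be cut at 8 characters), could stand for another gene. Rows of 1 enzyme are included in the counts and medians over members but are not reported here; the other member rows were named. Members and lists were chosen with earlier results of these data known. The code was tested on simulated data. Python 3.11.15, numpy 2.4.6, pandas 2.3.3 and scipy 1.17.1 were used. Results were recomputed with size factors by median of ratios, with library totals (all genes, or leaving out globin and mitochondrial ones), with FPKM at pseudocounts of 0.1 and 1, at minimum counts of 1 and 50 and folds of 1.5 and 3, with rows summed, and after a gene length trend in 50 bins was taken out.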

Additional observations from a re-analysis of the deposited data

How the results depend on the processing

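In moderate hypoxia against the control, where 1 row was at least 2-fold higher and 8 were lower, library totals gave 4 and 2, totals that leave out globin and mitochondrial genes gave 3 and 3, and FPKM with a pseudocount of 1 or 0.1 gave 4 and 2. For severe hypoxia against the control (1 and 6) the rows at least 2-fold lower numbered 0 on library totals, 1 without globin and mitochondrial genes and 0 on both FPKM scales. For severe against moderate hypoxia (2 and 1) these settings gave 1 and 6, 1 and 2, and 1 and 5. At 1.5-fold the counts were 3 higher and 17 lower, 16 lower in severe hypoxia against the control, and 6 and 6 for severe against moderate hypoxia; at 3-fold they were 2 lower, 0 lower, and 0 and 0. Summing rows of a symbol left 5 lower in moderate hypoxia. Removing the length trend left 2 lower there, alas2 and the larger blvrb row, with uros at log2 -0.75 and hmox1 at -0.83. For severe against moderate hypoxia it left 1 and 0. Other counts were within 1.5 times, among them those with median-of-ratios factors or other minimum counts. Shares over all genes are not given for these recounts, so they are not set against a background. Of the 19 enzymes, 7, 6 and 3 changed sign on library totals in the 3 comparisons in that order, and none did with median-of-ratios factors. No paired analysis was possible because the table holds 1 value per group, and leaving out single libraries was not run for the same reason. The spread between fish is unknown, and small counts (HEPHL1 in the control, fxn, mmab) limit precision.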

Other observations

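Genes around the enzymes were described from lists of related genes. Of 47 rows for mitochondrial supply and haem export, 9 were at least 2-fold lower and 4 higher in moderate hypoxia against the control, where 14.1% and 20.0% of all genes were, with a median of log2 -0.14 (0.55 on library totals). In severe hypoxia 3 were lower and 2 higher, where 4.40% and 13.7% of all genes were. The mitochondrial iron importer of red cells, slc25a37 or mitoferrin 1, had 1911, 1471 and 1130 counts in the control, moderate and severe hypoxia, at log2 -1.07 and -1.04 against the control (-0.38 and -0.71 on library totals). The tmem14ca row, a porphyrin carrier of the inner mitochondrial membrane in mammals, had 968, 512 and 527 counts (-1.61 and -1.16). The iron-sulfur scaffold iscua had 4459, 2786 and 3934 counts (-1.37 and -0.47). Counts of pgrmc1 were 1566, 1131 and 1630 (-1.16 and -0.23, the latter 0.11 on library totals). In the other direction, its much smaller relative pgrmc2, which in mouse carries haem to the nucleus, had 12.6, 129 and 52.2 counts (2.66 and 1.77). The haem carrier flvcr2 had 95.7, 348 and 215 (1.17 and 0.88). The mitochondrial protease lonp1, which in mammals degrades alas1, had 130, 454 and 144 (1.11 and -0.14, the latter 0.20 on library totals).

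Among 27 rows of haem sensing and erythroid control, 7 were at least 2-fold lower and 5 higher in moderate hypoxia (14.1% and 20.0% of all genes). In severe hypoxia 1 was lower and 5 were higher (4.40% and 13.7% of all genes). The haem-binding repressor bach1 had 37.0, 235 and 126 counts in the control, moderate and severe hypoxia, at log2 1.98 and 1.48 against the control. The copy bach1b, with more counts in the control, had 66.3, 138 and 100 (0.36 and 0.31). The partner of bach1, mafk, had 123, 337 and 310 (0.76 and 1.05). In mammals bach1 represses hmox1, whose counts are given above, and the part of bach1 in the hmox1 values was not tested. From the same list, nfe2l2a had 3019, 3419 and 3857 counts (-0.52 and 0.07) and nfe2l2 1718, 1921 and 1767 (-0.53 and -0.25). On library totals nfe2l2a was at 0.17 in moderate hypoxia, and nfe2l2 was at 0.16 and 0.09. Counts of keap1b were 1145, 1054 and 1590 (-0.81 and 0.19), and the small keap1a row was at 0.52 and 0.37. Their part in the hmox1 values was not tested either. The erythroid factors tal1 (2311, 1264 and 1538 counts) and lmo2 (1775, 1007 and 1528) were at -1.57 and -1.51 in moderate hypoxia. Of 13 rows of haem and haemoglobin scavenging, lrp1, the receptor for haem bound to haemopexin, had 296, 1685 and 778 counts (1.81 and 1.10), and cd163, the haemoglobin receptor of macrophages, 92.7, 230 and 152 (0.62 and 0.42). In severe hypoxia all 13 scavenging rows above the minimum were above 0 against the control, where 49.6% of all genes were below 0. The intervals of the haemopexin rows hpxb (log2 0.35, -0.06 to 0.76) and hpxa (0.10, -0.31 to 0.52) span 0 there. The plasma proteins were lowest in moderate hypoxia: hpxb had 28.3, 0.333 and 44.0 counts, hpxa 29.0, 0 and 38.0, and haptoglobin hp 38.0, 3.00 and 80.0. Liver markers, which include haemopexin, stood at 50.1, 2.90 and 65.7 CPM in the same order, and their part in these values was not tested. The haem a synthesis enzymes cox10 (69.3, 143 and 80.3 counts) and cox15 (420, 517 and 468) were within 2-fold of the control under TMM, at log2 0.35 and -0.39 in moderate hypoxia, and on library totals cox10 was at 1.04 and cox15 at 0.29.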
